A study of Homo sapiens with 4 samples.

Results

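The genes described here are 10 transcriptional targets of the RAS-ERK pathway, grouped here as feedback genes. They are SPRY1, SPRY2 and SPRY4 (Sprouty family), SPRED1 and SPRED2 (Sprouty-related proteins), and DUSP4 and DUSP6 (dual-specificity phosphatases). ETV1, ETV4 and ETV5 (ETS transcription factors of the PEA3 group) complete the 10. The genes were taken by symbol from the count tables, and all 10 were present among the 29387 genes shared by the 4 tables. The study compared populations of U87MG, an established human glioblastoma cell line. U87MG cells were left for 1 week to invade organotypic brain slices in a neural stem cell medium that held FGF and EGF, after which cells that had invaded and cells that had not were recovered and each was grown on in vitro for 3 to 5 days before RNA was extracted. The invasive group holds 2 separately derived populations, called clones in the labels, and the control group holds 2 poorly invasive populations. Each population gave 1 library of polyadenylated RNA. Control 1 belongs with invasive 1 (pair 1) and control 2 with invasive 2 (pair 2), as the submitters paired them, and all 4 populations had the same parental line, the same slice medium and the same time windows. The species of the slices and whether a clone began as a single cell are not given, and all results come from 1 cell line.

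Growth factor receptors such as EGFR and FGFR1 activate RAS, RAF, MEK and ERK in turn, and active ERK drives transcription of a set of genes that dampen the same route. Sprouty proteins act between the receptor and RAF, SPRED proteins bring the RAS inactivator neurofibromin (NF1) to the membrane, and DUSP4 (in the nucleus) and DUSP6 (in the cytoplasm) remove the activating phosphates from ERK. ETV1, ETV4 and ETV5 are activators whose transcription is held down by the repressor Capicua (CIC) until ERK signalling relieves it. These ETV genes are counted here as outputs of the route. Because these transcripts respond to ERK activity, they are often read as a record of pathway output in gliomas, where EGFR, PDGFRA and NF1 lesions act on this route. Phosphorylation of ERK was not measured here.

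Library totals lay between 13829871 and 17817756 counts, so that 3 counts, the floor used here, corresponded to 0.168 to 0.217 CPM (counts scaled to a library of 1000000). Of the labelled line's markers, VIM had 113467 to 145137 counts and CD44 24032 to 38230. Among 4 tested of 9 identity genes, CD44 (−0.40 ± 0.11 on the log2 scale, invasive over control) and NES (−0.33 ± 0.12) were lower at an unadjusted p under 0.05 and 0 were higher. Of all genes tested, 8.41% were lower and 9.82% higher at that threshold. The median of those 4 genes was −0.36, with fitted values from −0.71 to −0.01, and edgeR called 0 of them after adjustment. GFAP, SOX2 and S100B had at most 4 counts in any library, and CDKN2A and MTAP, which lie in a region deleted in U87MG, had at most 2. In each of the lists for microglia, oligodendrocytes, astrocytes and endothelium, 1 gene was at 0 in every library (P2RY12, MOG, AQP4 and CLDN5), and 0 of the 6 neuronal genes were. Other list genes were measured, CSF1R at 10.1 to 21.6 CPM, CNP at 87.2 to 122 CPM, CLU at 397 to 479 CPM, KDR at 8.67 to 22.9 CPM and SNAP25 at 26.3 to 40.4 CPM. Across control 1, invasive 1, control 2 and invasive 2, the summed level of the microglial list was 21.96, 18.2, 11.4 and 10.3 CPM. The neuronal sum was 58.0, 61.9, 59.3 and 52.7 CPM, the oligodendrocyte sum 107, 122, 87.8 and 89.0 CPM, the astrocyte sum 754, 702, 592 and 718 CPM, and the endothelial sum 12.5, 11.7, 23.8 and 10.3 CPM. In bulk RNA, fewer cells of a kind and less RNA per cell cannot be told apart, and the part of other cells, or of a shift in the identity genes, in the results was not tested.

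Most of the feedback genes were lower in the invasive populations, although no single member passed the test across all genes. CPM below are counts divided by the library size after trimmed-mean (TMM) scaling, and each fitted fold change is the log2 ratio of invasive to control over both pairs, from edgeR's two-sided quasi-likelihood test, in which the pair was a block. With 1 library per population, its p-values and standard errors measure only the spread between these populations. A gene's own values leave 1 degree of freedom, and a median of 5.45 comes from the other genes. The spread is therefore estimated largely across genes and is not that of the single gene. Of 14231 genes tested, 0.0351% were lower and 0.239% higher at an adjusted p under 0.05 (Benjamini-Hochberg), and edgeR called 0 of the 10 members in either direction. At an unadjusted p under 0.05, 6 members were lower (SPRY2, SPRY4, SPRED1, SPRED2, DUSP6 and ETV4) against 8.41% of all genes, and 0 were higher against 9.82%. The members and the pathway lists were chosen with earlier results of these data known. Their counts beside the share of all genes, here and below, are therefore descriptions only. DESeq2 with the same block also called 0 members and placed 4 of them lower at an unadjusted p under 0.05, against 2.74% of all genes. With the filter on low counts removed, edgeR called 5 members lower: SPRY2, SPRY4, SPRED2, DUSP6 and ETV4. That setting called many more genes in general, 693 of 25577 lower (2.71%). With each library left out in turn, the fitted log2 fold change ran from −0.96 to −0.71 for ETV4 and from −0.77 to −0.52 for DUSP6. It ran from −0.62 to −0.39 for SPRED2, −0.53 to −0.28 for SPRY2, −0.50 to −0.31 for SPRY4 and −0.26 to −0.23 for SPRED1. ETV5 also stayed below 0 (−0.16 to −0.10). ETV1 (−0.26 to 0.37) and SPRY1 (−0.68 to 0.00062) changed sign, and DUSP4 stayed above 0 (0.05 to 0.80).

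Direction was the same in both pairs for most members. SPRY2, SPRY4, SPRED1, SPRED2, DUSP6, ETV4 and ETV5 were lower in the invasive library of both pairs, 7 of 10 members, where 31.9% of all genes were. In these same 7 genes both invasive values lay below both control values, which held for 21.6% of all genes. ETV1 was higher in both pairs, as were 33.4% of all genes, and SPRY1 and DUSP4 went opposite ways, as did 34.7%. The median fitted log2 fold change of the 10 members was −0.35, and the median over all genes tested was 0.01. Taken by pair, the members' median was −0.29 (pair 1) and −0.36 (pair 2). With invasive 1 left out the fitted median was −0.49.

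**Figure D1:**
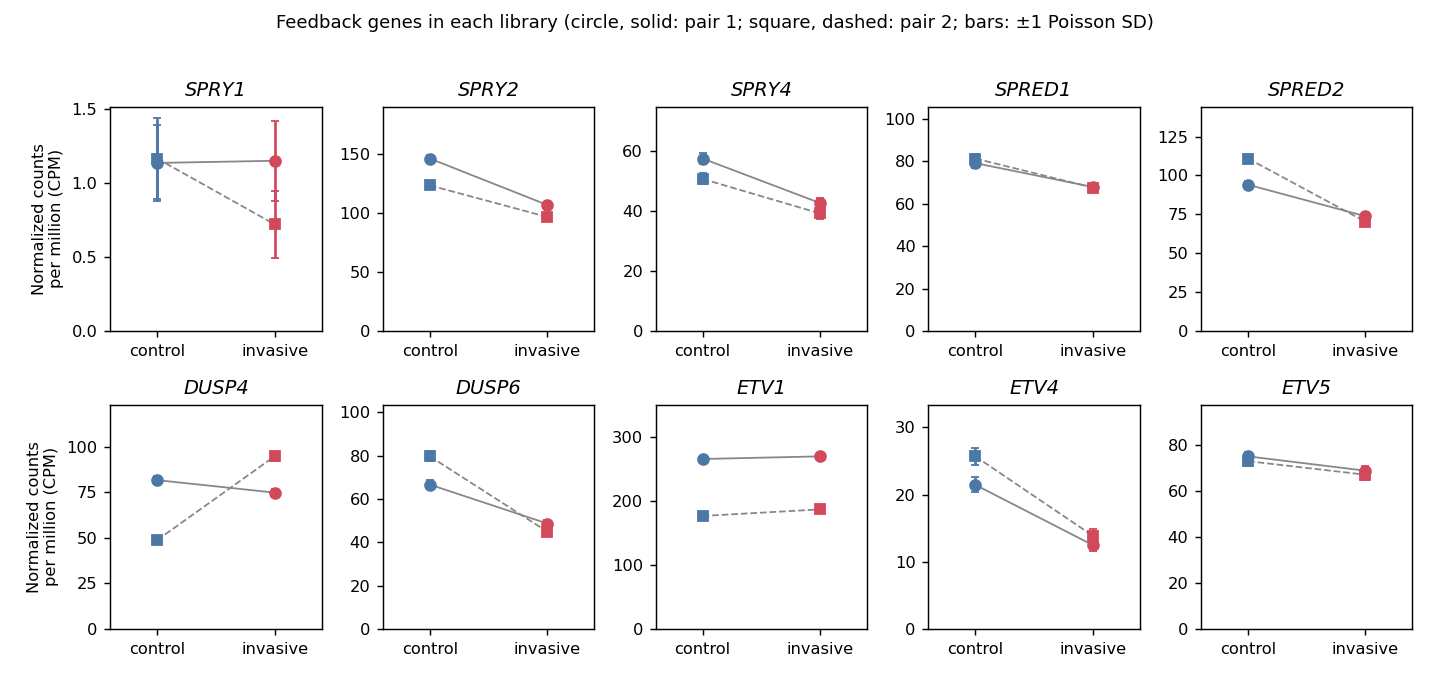
Normalized CPM of each of the 10 feedback genes in the 4 libraries (linear axis from 0, a scale of its own for each gene; blue control, red invasive; circles with solid lines pair 1, squares with dashed lines pair 2; bars ±1 Poisson SD of the count). Both lines slope down for SPRY2, SPRY4, SPRED1, SPRED2, DUSP6, ETV4 and ETV5, ETV1 separates by pair, and the DUSP4 lines cross.

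Per kilobase of merged exon, SPRY2 had the highest level of the 10 genes and SPRY1 the lowest. The mean over the 4 libraries was 38.9 CPM per kb for SPRY2, 23.4 for ETV1, 16.9 for SPRED2, 12.9 for DUSP6 and 12.3 for ETV5. It was 10.3 CPM per kb for DUSP4, 8.96 for SPRED1, 7.23 for SPRY4, 5.09 for ETV4 and 0.264 for SPRY1. SPRY2 (31.8 to 48.1 CPM per kb) did not overlap ETV1 (18.4 to 28.1), and ETV4 (3.46 to 7.12) did not overlap SPRY1 (0.182 to 0.295). Every other pair of neighbours in this order had overlapping ranges over the libraries.

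**Figure D2:**
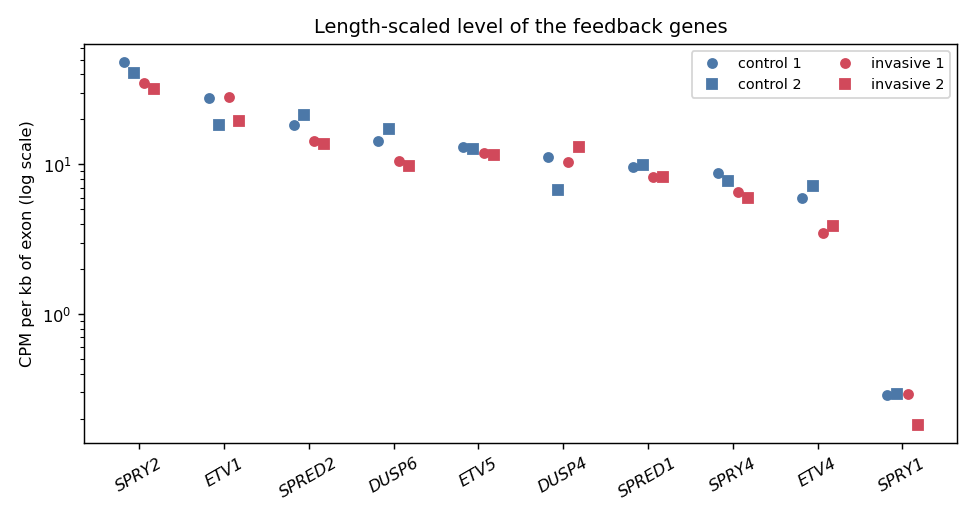
Length-scaled level (CPM per kb of merged GENCODE exon, log axis) of the 10 feedback genes in order of their mean, 1 point per library (blue control, red invasive; circles pair 1, squares pair 2). SPRY2 stands highest at 31.8 to 48.1 CPM per kb and SPRY1 lowest at 0.182 to 0.295, while the neighbours between ETV1 and ETV4 overlap.

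Promoter sequence is shown for 3 members: ETV1 was flat between the groups, and SPRED2 and SPRY2 were lower in the invasive populations. For ETV1 and SPRED2 the stretch printed is from the window that held one of the motifs below, and no SPRY2 window held any. RefSeq promoter windows (GRCh38.p14, 250 bases before to 50 after a start site) matched 7 of the 10 members, with 16 windows, by symbol. They were searched on both strands for the Capicua sites TGAATGAA and TGAATGGA, the ETS site CCGGAAGT and the AP-1 pattern TGANTCA. In this last pattern N stood for any base, and it is its own reverse complement apart from that middle base. Of 35116 windows of this length, 1.65% held TGAATGAA, 1.03% TGAATGGA, 4.14% CCGGAAGT and 7.71% TGANTCA. Among the members' windows, 1 ETV1 window held TGAATGGA at −125 to −118 from the start. The window of an alternative SPRED2 start matched TGANTCA at −6 to 1, as TGACTCA, and at 35 to 41, as TGAATCA. None of the 4 motifs was found in the other member windows. DUSP4, ETV4 and ETV5 had no window, so their promoters were not searched. The 250 bases before each start are printed 5′ to 3′ on the gene's strand, with matched letters in capitals (for SPRED2, the 6 upstream bases of the match that ends on the start); the SPRY2 stretch holds none.
ETV1, chr7:13991426-13991675, minus strand: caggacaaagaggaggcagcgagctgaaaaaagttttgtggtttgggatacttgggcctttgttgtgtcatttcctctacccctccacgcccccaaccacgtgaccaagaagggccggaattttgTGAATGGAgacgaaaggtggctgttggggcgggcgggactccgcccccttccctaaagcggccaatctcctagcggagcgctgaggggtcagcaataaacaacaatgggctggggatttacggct
SPRED2, alternative start, chr2:65366779-65367028, minus strand: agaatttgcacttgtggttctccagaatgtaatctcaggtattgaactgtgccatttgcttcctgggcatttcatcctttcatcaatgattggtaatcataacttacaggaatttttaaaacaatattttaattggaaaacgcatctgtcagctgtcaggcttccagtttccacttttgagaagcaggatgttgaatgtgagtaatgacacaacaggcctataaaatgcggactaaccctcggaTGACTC
SPRY2, chr13:80341127-80341376, minus strand: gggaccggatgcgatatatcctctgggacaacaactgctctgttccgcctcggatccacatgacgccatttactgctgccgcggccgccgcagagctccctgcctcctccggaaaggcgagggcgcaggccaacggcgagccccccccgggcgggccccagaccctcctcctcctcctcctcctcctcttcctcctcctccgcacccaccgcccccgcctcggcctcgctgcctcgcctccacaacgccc
A match of letters is a description of the window and was not tested as a binding site in these cells.

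Among the Sprouty genes, which act closest to the receptor, SPRY2 and SPRY4 were lower in both invasive populations, and SPRY1 was near the limit of detection. SPRY2 (ENSG00000136158, chr13:80335976-80340951, minus strand) had 146 CPM in control 1 and 107 in invasive 1, with 123 in control 2 and 96.7 in invasive 2. Both invasive values were below both controls, with group means of 134.8 ± 16.1 and 101.8 ± 7.20 CPM (SD, n = 2 each). The ratio of invasive to control was 0.731 in pair 1 (95% counting interval 0.687 to 0.778) and 0.783 in pair 2 (0.730 to 0.840). These intervals, from the exact binomial interval of the paired counts, cover counting error only. The fitted log2 fold change of SPRY2 was −0.40 ± 0.09 (SE; adjusted p = 0.128, edgeR).

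SPRY4 (ENSG00000187678, chr5:142310427-142326455, minus strand), a Sprouty protein that also binds RAF, went with SPRY2. It had 57.5 CPM in control 1 and 42.7 in invasive 1, and 50.7 in control 2 and 39.2 in invasive 2. The groups did not overlap, and the fitted log2 fold change was −0.40 ± 0.11 (adjusted p = 0.148, edgeR). Within-pair log2 differences were −0.43 and −0.37 for SPRY4 and −0.45 and −0.35 for SPRY2. Per kilobase, SPRY2 made up 83.5% to 84.2% of the Sprouty sum of SPRY1, SPRY2 and SPRY4 in each library, so its share was nearly the same in both groups. The sum was lower in both invasive libraries: 57.2 CPM per kb in control 1 and 42.0 in invasive 1, with 48.7 in control 2 and 37.98 in invasive 2.

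SPRY1 (ENSG00000164056, chr4:123396795-123403760, plus strand) had 20 counts in control 1 and 18 in invasive 1, with 18 in control 2 and 10 in invasive 2, or 0.723 to 1.17 CPM. The pair 1 ratio was 1.01 (0.505 to 2.02) and the pair 2 ratio 0.619 (0.255 to 1.41). Both counting intervals span equality, so a difference in SPRY1 was not detectable at this depth.

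Both SPRED genes, whose products carry neurofibromin to the membrane, were lower in both invasive populations, SPRED2 by more than SPRED1. SPRED2 (ENSG00000198369, chr2:65310851-65432637, minus strand) had 94.0 CPM in control 1 and 73.8 in invasive 1, with 111 in control 2 and 70.3 in invasive 2. The controls differed from each other by 0.24 on the log2 scale and the invasive populations by −0.07, so pair 2 had the wider gap. Its ratio was 0.784 in pair 1 (0.727 to 0.846) and 0.634 in pair 2 (0.585 to 0.686). Over both pairs the fitted log2 fold change was −0.50 ± 0.11 (adjusted p = 0.118, edgeR).

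SPRED1 (ENSG00000166068, chr15:38252326-38357249, plus strand), the SPRED gene that is mutated in Legius syndrome, had close values within each group. It had 79.2 CPM in control 1 and 81.4 in control 2, and 67.9 and 67.6 in invasive 1 and 2. The group means were 80.3 ± 1.53 and 67.8 ± 0.209 CPM (SD, n = 2 each), and the fitted log2 fold change was −0.24 ± 0.09 (adjusted p = 0.249, edgeR). Leaving out any 1 library kept it between −0.26 and −0.23. NF1 itself, the partner of both proteins, had 90.0 CPM in control 1 and 96.3 in invasive 1, with 108 in control 2 and 97.1 in invasive 2, with a fitted log2 fold change of −0.02 ± 0.10 (adjusted p = 0.924, edgeR).

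**Figure D3:**
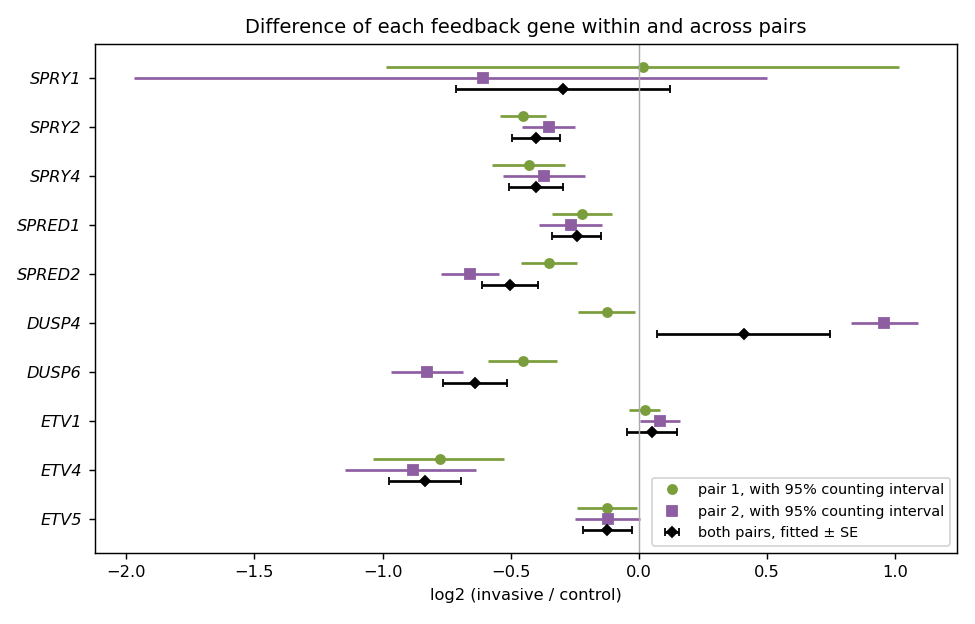
Log2 ratio of invasive to control for each feedback gene in pair 1 (green circles) and pair 2 (purple squares) with 95% counting intervals, and fitted over both pairs (black diamonds ± SE); the x axis is log2. ETV4 and DUSP6 lie farthest to the left at −0.83 and −0.64, and the 2 DUSP4 points lie on opposite sides of 0.

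The ERK phosphatases did not go together: DUSP6 was lower in both invasive populations, and DUSP4 differed in direction between the pairs. DUSP6 (ENSG00000139318, chr12:89347232-89353271, minus strand) had 66.6 CPM in control 1 and 48.6 in invasive 1, with 79.6 in control 2 and 44.9 in invasive 2. Both invasive values were below both controls, with means of 73.1 ± 9.22 and 46.7 ± 2.63 CPM (SD, n = 2 each). The ratio was 0.730 in pair 1 (0.666 to 0.801) and 0.564 in pair 2 (0.511 to 0.621). Its fitted log2 fold change was −0.64 ± 0.12 (adjusted p = 0.0978, edgeR), and it ran from −0.77 to −0.52 with 1 library left out. An antisense gene, AC024909.2, covers 1875 bases (40.5%) of the DUSP6 exons and had 2 counts in control 1, 7 in control 2, 1 in invasive 1 and 3 in invasive 2. The libraries were strand-specific, but the strand setting of the counting step is unstated, so reads over those bases cannot be split between the genes.

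DUSP4 (ENSG00000120875, chr8:29333064-29350668, minus strand) had 81.7 CPM in control 1 and 74.9 in invasive 1, with 48.8 in control 2 and 94.8 in invasive 2. Control 2 was the lowest library and invasive 2 the highest, and the group ranges overlapped. Its ratio was 0.916 in pair 1 (0.847 to 0.991) and 1.94 in pair 2 (1.77 to 2.13). The fitted log2 fold change was 0.41 ± 0.34 (adjusted p = 0.603, edgeR), and it ran from 0.05 (without control 2) to 0.80 (without control 1) with 1 library left out. DUSP6 accordingly made up 56.1% of the length-scaled sum of both phosphatases in control 1 and 50.4% in invasive 1, with 71.9% in control 2 and 42.6% in invasive 2. The sum itself was 25.6, 20.8, 23.9 and 22.7 CPM per kb in the same order.

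In the ETV group, ETV4 was lower in both invasive populations, ETV5 was slightly lower, and ETV1 followed the pair and not the group. ETV4 (ENSG00000175832, chr17:43527844-43579620, minus strand), an activator tied to migration and branching in several tissues, had 21.4 CPM in control 1 and 12.5 in invasive 1, with 25.7 in control 2 and 13.9 in invasive 2. ETV4 had the largest fitted log2 fold change among the members, in either direction, and the lower control was 7.57 CPM above the higher invasive value. The ratio was 0.582 in pair 1 (0.487 to 0.694) and 0.540 in pair 2 (0.452 to 0.643). Fitted over both pairs, the log2 fold change was −0.83 ± 0.14 (adjusted p = 0.0843, edgeR), 127th of 14231 genes by p. With upper-quartile scaling in place of TMM, ETV4 passed the threshold (adjusted p = 0.0473, edgeR). Its exons share 68 bases with DHX8 on the other strand.

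ETV5 (ENSG00000244405, chr3:186046308-186110318, minus strand) had 75.2 CPM in control 1 and 69.0 in invasive 1, with 73.1 in control 2 and 67.2 in invasive 2. The groups did not overlap, by a margin of 4.15 CPM, and the fitted log2 fold change was −0.12 ± 0.09 (adjusted p = 0.529, edgeR). Its log2 difference was −0.12 in each pair, and the pair 2 counting interval (−0.25 to 0.0051) reached equality. ETV5 shares 164 exon bases with DGKG on the same strand.

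ETV1 (ENSG00000006468, chr7:13891228-13991425, minus strand), the most abundant of the ETV genes per kilobase, had 266 CPM in control 1 and 269.8 in invasive 1, against 177 in control 2 and 187 in invasive 2. Both libraries of pair 2 were lower than both of pair 1, by −0.59 between the controls and −0.53 between the invasive populations on the log2 scale. The fitted log2 fold change between the groups was 0.05 ± 0.10 (adjusted p = 0.815, edgeR). With 1 library left out and hence no pairing, it ran from −0.26 (without invasive 1) to 0.37 (without control 1), and it was −0.22 without control 2. Per kilobase, ETV4 made up 12.8% of the ETV sum in control 1 and 7.98% in invasive 1, with 18.7% in control 2 and 11.03% in invasive 2.

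**Figure D4:**
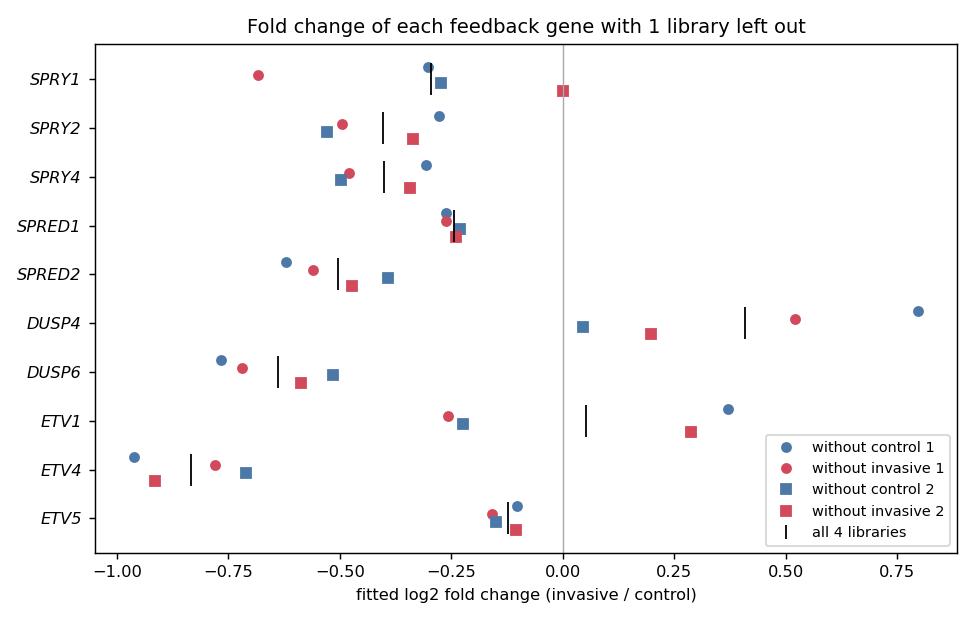
Fitted log2 fold change of each feedback gene with 1 library left out (blue without a control, red without an invasive population; circles pair 1, squares pair 2) and with all 4 libraries (black bars). ETV4, DUSP6, SPRED2, SPRY2, SPRY4, SPRED1 and ETV5 stay below 0 in every case, and ETV1 crosses 0.

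Populations of the same group also differed from each other. Control 2 differed from control 1 by at least 1.5-fold in DUSP4 and ETV1, 2 of 10 members, against 12.8% of all genes. Invasive 2 differed from invasive 1 by that much in SPRY1 alone, against 12.6% of all genes. A lower level by at least 1.5-fold was seen for ETV4 in pair 1 (3.42% of all genes) and for SPRY1, SPRED2, DUSP6 and ETV4 in pair 2 (6.04% of all genes). For SPRY1 that rests on 18 and 10 counts, whose interval spans equality. A level at least 1.5-fold higher was seen for 0 members in pair 1 (8.43% of all genes) and for DUSP4 in pair 2 (10.9% of all genes).

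Across the 4 libraries, the protein-coding genes whose centred log2 CPM lay nearest to that of DUSP6 were EVI2A, GCFC2, CTSC, TFPI and STEAP1B, with root mean square differences of 0.0144, 0.0313, 0.0317, 0.0340 and 0.0435. EVI2A had 14.8 CPM in control 1 and 10.5 in invasive 1, with 17.6 in control 2 and 9.90 in invasive 2. Among the members, SPRED2 was 21st of 10344 genes by this measure (0.0698) and ETV4 154th (0.133), whereas ETV1 was 8514th and DUSP4 9848th. Likeness over 4 libraries is a description, since many genes share a profile of so few points.

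The rest of the pathway was read from 8 lists with 141 genes, of which 119 were tested. The counts in these lists stand beside 8.41% of all genes lower and 9.82% higher at an unadjusted p under 0.05 (edgeR). Among 17 tested of 19 other feedback regulators, 2 were lower at an unadjusted p under 0.05, ERRFI1 and DUSP5, and 2 were higher, RGS4 and CISH, with a median log2 fold change of −0.12. Taken by pair, the median of this list was −0.045 in pair 1 and −0.313 in pair 2. ERRFI1, an inhibitor that binds EGFR, had 232 CPM in control 1 and 148 in invasive 1, with 233 in control 2 and 176 in invasive 2, fitted at −0.53 ± 0.11 on the log2 scale (adjusted p = 0.107, edgeR). DUSP5, a nuclear ERK phosphatase, had 39.3, 31.0, 35.5 and 28.4 CPM in the same order (−0.33 ± 0.11, adjusted p = 0.213, edgeR). As for DUSP6 and SPRY2, both invasive values of each gene lay below both controls. Of 16 other ERK output genes, 5 were lower at an unadjusted p under 0.05 (PLAUR, MYC, IER3, TRIB1 and, named after its values were seen, MAFF) and 0 were higher, with a median of −0.23. By pair, the median of these output genes was −0.0031 in pair 1 and −0.384 in pair 2, so it was near 0 in pair 1. MYC had 86.2 CPM in control 1 and 70.3 in invasive 1, with 101 in control 2 and 72.3 in invasive 2 (−0.39 ± 0.10, adjusted p = 0.139, edgeR). CCND1 and PHLDA1, which are often read together with DUSP6 and ETV4, had fitted values of −0.08 ± 0.13 and −0.19 ± 0.13.

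Upstream of the members, none of the 11 receptors tested of 18 was lower at an unadjusted p under 0.05, and PDGFRA was higher (1.33 ± 0.28 on the log2 scale, adjusted p = 0.108, edgeR). EGFR had 250 CPM in control 1 and 236 in invasive 1, with 317 in control 2 and 225 in invasive 2, fitted at −0.29 ± 0.13 (adjusted p = 0.295, edgeR). FGFR1 was higher in invasive 1 (259 against 227 CPM) and lower in invasive 2 (239 against 307 CPM). Of 18 ligands tested of 23, 5 were lower and 2 higher at an unadjusted p under 0.05, with a median of −0.12. HGF, the ligand of MET, was the single one past the adjusted threshold. It fell by 1.55 ± 0.13 on the log2 scale (adjusted p = 0.0205, edgeR), from 48.8 and 29.1 CPM in controls 1 and 2 to 15.9 and 10.4 CPM. Without the pair block, without control 2 or without invasive 2, edgeR called 0 genes lower, HGF included. HBEGF, an EGFR ligand and itself an ERK target, had 43.8 CPM in control 1 and 29.2 in invasive 1, with 64.3 in control 2 and 35.7 in invasive 2 (−0.72 ± 0.12, adjusted p = 0.0843, edgeR). Also lower were FGF14, at 1.37 to 4.55 CPM (−1.60 ± 0.29, adjusted p = 0.0937, edgeR), and VEGFA, at 364 to 586 CPM (−0.58 ± 0.11, adjusted p = 0.0968, edgeR).

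Between receptor and ERK the transcripts were mostly flat. Of 22 cascade genes tested, 0 were lower and 3 higher at an unadjusted p under 0.05 (MRAS, RRAS2 and MKNK1), with a median of 0.04, and edgeR called 0 after adjustment. At that unadjusted threshold 8.41% of all genes were lower and 9.82% higher. Among 16 adaptors and RAS regulators tested, PTPN11 was lower and CBLB higher, with a median of −0.01. CIC, the repressor of the ETV genes, had 106 CPM in control 1 and 122 in invasive 1, with 107 in control 2 and 119 in invasive 2 (0.18 ± 0.09, adjusted p = 0.350, edgeR). Of 16 other ETS factors tested, ETS1, ELK3, ELF4 and ETS2 were lower at an unadjusted p under 0.05 and ELF5, named after its values were seen, was higher, with a median of −0.14. The medians of 5 lists changed sign with 1 library left out: other ERK output genes (0.08 without control 2), ligands (0.0044 without invasive 1 and 0.00013 without control 2, from −0.12), adaptors (0.01 without control 2), cascade (−0.01 without control 1) and the Capicua complex (−0.11 without invasive 2, from 0.13). The median of the 10 feedback genes kept its sign with each library left out. So did the medians of the other feedback regulators, the receptors and the other ETS factors.

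**Figure D5:**
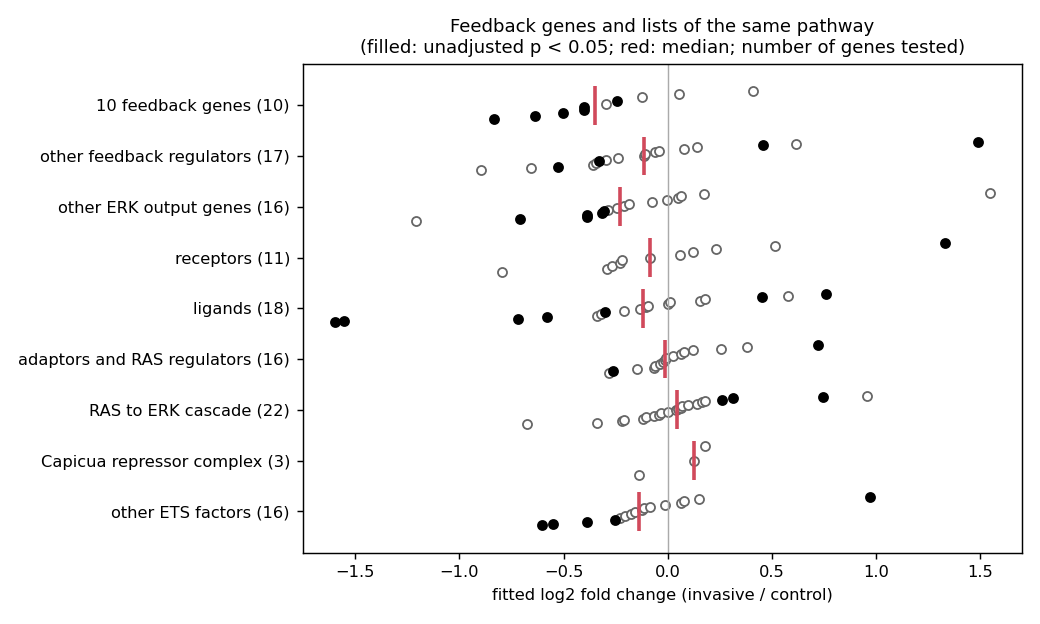
Fitted log2 fold change (invasive over control) of each tested gene in the 10 feedback genes and in 8 other lists of the pathway (1 point per gene; filled at an unadjusted p under 0.05; red bars medians; numbers of genes tested in parentheses). The feedback genes have a median of −0.35, the other ERK output genes −0.23, and the cascade genes 0.04. By pair (not drawn), the median of the other ERK output genes was −0.0031 in pair 1 and −0.384 in pair 2.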

How the data were processed

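RNA was sequenced from 4 populations of the U87MG line, 2 invasive and 2 control, with strand-specific libraries of polyadenylated RNA, per the labels' protocols. The submitters' processing notes name HTSeq, DESeq2, Bowtie, TopHat2 2.0.12 and bcl2fastq 1.8.4 with the build GRCh38; for settings and strand handling nothing is stated. The authors deposited raw counts per gene, which were used here, and normalized values rounded to whole numbers (treated as a score, method not given), which served as an alternative. Genes listed in all 4 count tables (29387) were filtered with filterByExpr (14231 kept) and fitted with edgeR 4.0.16 (R 4.3.3; TMM, robust quasi-likelihood, pair as a block, 1 residual degree of freedom, Benjamini-Hochberg adjustment over all genes tested). Log2 CPM used a prior count of 2. Exon lengths are merged GENCODE v29 exons, and all 10 members had the same coordinates there as in the tables. DESeq2 1.42.0 was an alternative.

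The pairing comes from the submitters' design text. The log2 differences between the controls and between the invasive populations correlated over genes with r = 0.283. Totals of 13829871 to 17817756 counts set the precision, and replicates differed by more than sampling noise (chi-square per degree of freedom 34.1 between controls and 21.3 between invasive populations). The members and gene lists were chosen with earlier results of these data known. Named genes were all members, up to 4 genes per list with the smallest p under 0.05 and 1 sign in both pairs, 11 pathway genes named in any case (not all are reported here), and the 5 genes nearest to DUSP6 with a mean of at least 5 CPM. The fit was tested on simulated data. Alternatives were other scaling, no filter, no block, DESeq2, each library left out, another prior count and the authors' normalized values.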

Additional observations from a re-analysis of the deposited data

Results flagged for a closer look

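DUSP4 had a log2 difference between invasive and control of −0.13 in pair 1 and 0.96 in pair 2, and the counting intervals excluded 0 on opposite sides. FGFR1, a receptor for the FGF in the slice medium, had 0.19 in pair 1 and −0.36 in pair 2. CCND1, the cyclin that ERK signalling induces, had −0.27 in pair 1 and 0.12 in pair 2. For each of these 3 genes the invasive library moved one way in pair 1 and the other way in pair 2. The difference between the pairs was not tested, since each pair has 1 library per group, and 34.7% of all genes tested also went opposite ways.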

How the results depend on the processing

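The pair differences of the members under 58 combinations of gene, pair and alternative (another prior count, raw library totals, the authors' normalized values) all stayed within their counting intervals. These alternatives start from the same libraries as the intervals, so this was likely in advance and says nothing about other populations. Under each scaling, filter and prior count tried, 7 members were lower in both pairs, where 27.6% to 31.9% of all genes were. The authors' values, which held 9 members, also gave 7 (36.3% of all genes). The number of genes past the adjusted threshold, 34 higher and 5 lower with the pair as a block, was 2 and 0 with no replicate block, 80 and 9 with DESeq2 size factors, 164 and 18 with upper-quartile factors, 760 and 693 with no filter on low counts, and 142 and 29 with DESeq2. The members called lower were 0 with the pair as a block, 1 with upper-quartile factors (ETV4) and 5 with no filter (adjusted p = 0.0038 for SPRY2, 0.0129 for SPRY4, 0.000101 for SPRED2, 1.43e-06 for DUSP6 and 1.88e-05 for ETV4, edgeR). Leaving out the block changed no member's call, and 5 members were lower at an unadjusted p under 0.05 without it (4.50% of all genes). The causes were not tested.

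With 1 library left out, and hence no pairing, the genes called ranged from 4 to 83 higher and from 0 to 87 lower. Members lower at an unadjusted p under 0.05 ranged from 3 to 5, where 2.41% to 5.18% of all genes were lower, and members higher from 0 to 1 (DUSP4, without control 1, where 6.28% of all genes were higher). The members' median log2 fold change ranged from −0.49 (without invasive 1) to −0.29. ETV1 changed sign without invasive 1 (−0.26) and without control 2 (−0.22), over a range of −0.26 to 0.37, and SPRY1 without invasive 2, over a range of −0.68 to 0.00062. List medians that changed sign ranged from −0.333 to 0.0775 for other ERK output genes (positive without control 2), from −0.374 to 0.0044 for ligands (positive without invasive 1 and, at 0.00013, without control 2), from −0.0485 to 0.0074 for adaptors (positive without control 2), from −0.0144 to 0.0910 for the cascade (negative without control 1) and from −0.109 to 0.182 for the Capicua complex (negative without invasive 2). Depth limits SPRY1, at 10 to 20 counts per library.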

Other observations

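The values of some other genes of the pathway, chosen after their values were seen, are given here. FOS was highest in 1 invasive library and LIF in 1 control, and both libraries of pair 2 were above both of pair 1 for FGF2 and DUSP1. For SOCS3 and SPRED3 both invasive values were below both controls. FOS, an immediate early target of ERK, had 4.78 CPM in control 1 and 32.6 in invasive 1, with 5.71 in control 2 and 6.07 in invasive 2. LIF, a cytokine gene induced by ERK, had 340 CPM in control 2 against 47.9 to 67.6 CPM in the other libraries. FGF2, a ligand of FGFR1, had 142 CPM in control 1 and 172 in invasive 1, with 625 in control 2 and 334 in invasive 2. SOCS3, a feedback inhibitor of cytokine receptors, had 82.2, 65.6, 134 and 48.3 CPM in the same order. DUSP1, a phosphatase that acts on several MAP kinases, had 95.1, 96.6, 122 and 114 CPM in that order, and SPRED3, the least abundant SPRED transcript, had 3.07, 2.24, 3.96 and 2.17 CPM.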
